A study of Drosophila melanogaster with 12 samples.

Results

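Innexins are the proteins from which gap junction channels are built in Drosophila and other invertebrates. Expression of this gene family was followed in cells isolated from Drosophila ovaries. The members were the 8 genes ogre, Inx2, Inx3, zpg, Inx5, Inx6, Inx7 and shakB, and every probe set that the platform annotation gives to one of these symbols alone was taken. This gave 7 probe sets, 1 for each of 7 genes, among the 14010 probe sets of the array. No probe set is given to shakB in the annotation used here, so shakB was not analysed here. Of the 7 probe sets, 6 were bright enough to enter the tests, which ran over 9753 probe sets, and that of Inx6 was not.

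Innexin subunits join into a hemichannel, and hemichannels of adjoining cells dock to let ions and small molecules pass. In the ovary, zpg (zero population growth) is the innexin of the germ cells and is needed for early germ cells to survive and differentiate. Inx2, Inx3 and ogre are innexins of epithelia and other somatic tissues. Inx2 and Inx3 can share channels in epithelia, and Inx2 of the follicle cells can couple to germline zpg across the membranes of soma and oocyte.

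Ovaries came from females of 2 to 7 days, and cells were captured through a mouse CD8 tag fused to GFP, with magnetic beads that carry an antibody against mouse CD8. The captured cells are called migratory here and the cells that were left are called nonmigratory. The 4 groups of 3 arrays were slbo migratory, slbo nonmigratory, WT migratory and WT nonmigratory. The slbo mutants carried slbo-Gal4 and the allele slboe7b over UAS-mCD8-GFP and the allele slboLy6, and the WT flies carried slbo-Gal4 and UAS-mCD8-GFP/+ with no slbo allele named. All 4 groups therefore carried the slbo-Gal4 driver and the UAS-mCD8-GFP tag. slbo encodes the C/EBP transcription factor that border cells need to migrate, and the driver is active in border cells and in some other follicle cells, so the captured fraction is not border cells alone. The nonmigratory fraction is a mixture of the cells that were left, and how completely tagged cells were removed from it was not tested. The age label is missing for slbo nonmigratory replicate 2 and the genotype label for slbo nonmigratory replicate 3, whose genotype was read from its title.

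The slbo probe set itself gave 44.3, 51.4 and 35.1 on the slbo migratory arrays, against 275.2, 197.3 and 167.2 on the WT migratory arrays. It gave 87.3, 19.0 and 82.9 on the slbo nonmigratory arrays, against 114.8, 113.1 and 148.9 on the WT nonmigratory arrays. It was lower in slbo migratory cells by limma (log2 change -2.09, SE 0.404, n = 3 each, Benjamini-Hochberg adjusted p = 0.0134), and not called in nonmigratory cells (log2 change -1.11, limma adjusted p = 0.355). Between fractions it was not called in WT (log2 change 0.71, limma adjusted p = 0.353) or in slbo (log2 change -0.27, limma adjusted p = 0.764). Signals are MAS5 intensities on a linear scale, and trimmed array means lay between 150.026 and 150.030. Levels are compared only within a probe set, since probe sets differ in how strongly they bind. As a measure of background, the 95th percentile of 23 control probe sets for transcripts that flies lack averaged 39.2 over the arrays (24.95 to 50.9). On the slbo migratory arrays it was 40.5, 50.88 and 33.43, close to the signals of the slbo probe set there. Log2 changes below were taken after adding 7.50 to each signal, which understates the changes of dim probe sets. A probe set was called where its adjusted p over the 9753 was under 0.05. Arrays of these mixed cells cannot tell fewer cells of a type from less RNA per cell.

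Inx3, Inx2 and ogre, 3 innexins of somatic tissues, were higher in migratory than in nonmigratory cells in both genotypes, and Inx3 changed most. Of all tested probe sets, 3.42% rose in slbo and 3.95% in WT. Germline zpg was not called in any comparison. The only innexin called between genotypes was Inx2, which was lower in slbo migratory cells than in WT migratory cells, as were 0.769% of all tested probe sets. With each array left out in turn, this Inx2 call was lost for 5 of the 12 arrays. The slbo fraction calls of ogre and Inx2 were each lost for 9 of the 12. With a measure of RNA integrity as a covariate, no innexin was called between the WT fractions. Inx7 and Inx5 were not called in any comparison, and Inx6 stayed at background.

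**Figure D1:**
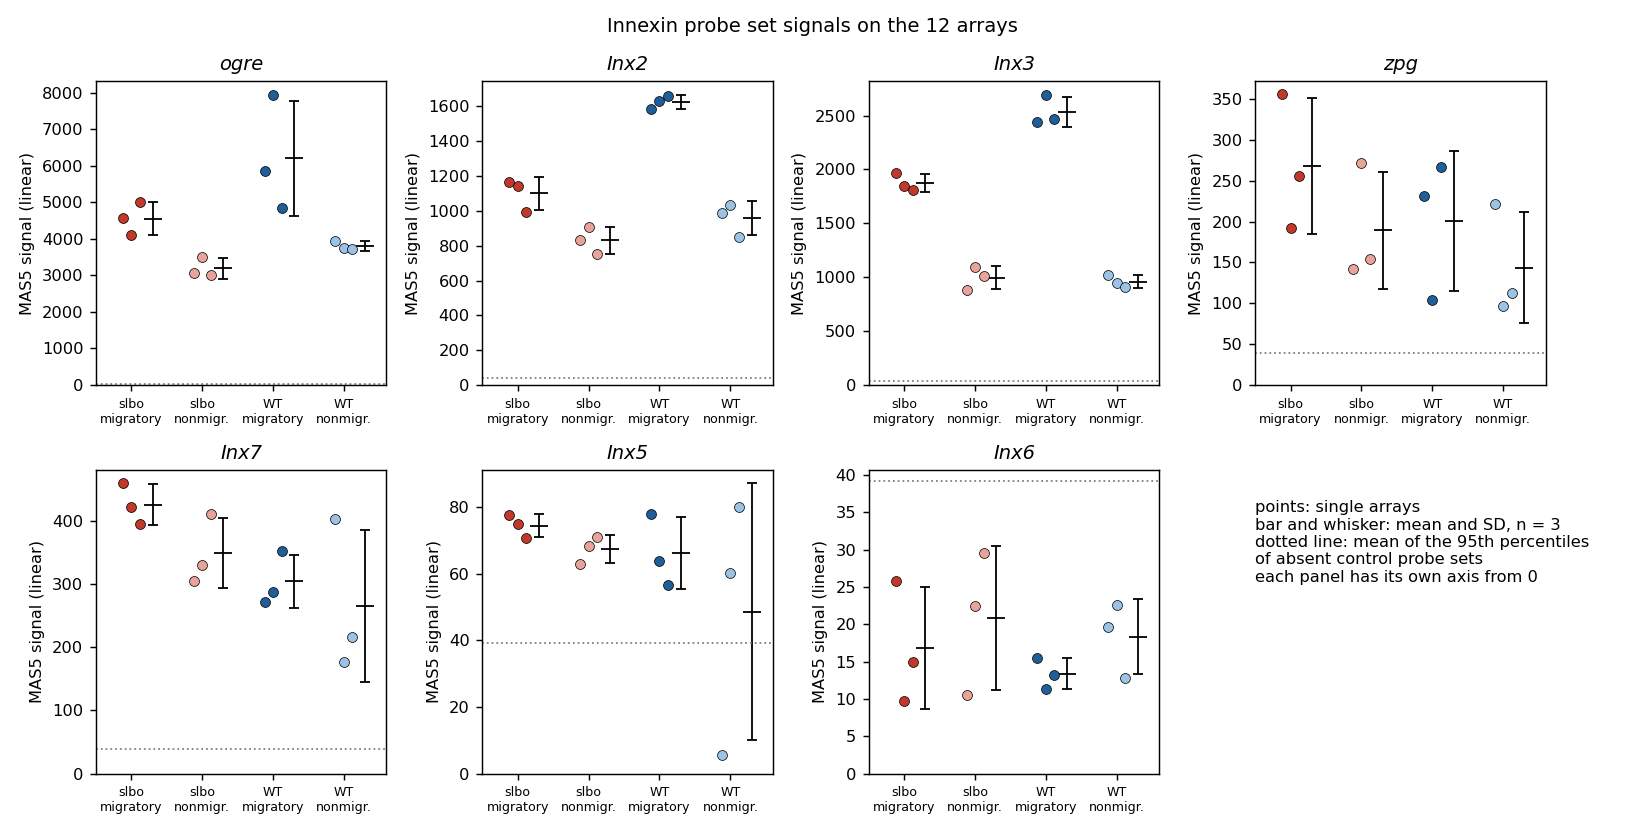
MAS5 signal (linear scale) of the 7 innexin probe sets on the 12 arrays, 1 panel for each gene with its own axis from 0; points are single arrays, the bar and whisker beside them the mean and SD (n = 3), and the dotted line the mean background of 39.2. For Inx3, all migratory points lie above all nonmigratory points, the zpg groups overlap, and every Inx6 point lies below the background line.

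Inx3 encodes a subunit that forms channels together with Inx2 in epithelia. Its signal was 1967.2, 1847.1 and 1810.2 in slbo migratory cells, against 883.2, 1095.6 and 1009.5 in slbo nonmigratory cells. In the wild type it was 2443.7, 2688.1 and 2466.9 in migratory cells, against 1020.3, 951.3 and 907.5 in nonmigratory cells. The fractions did not overlap in either genotype, while the nonmigratory groups of both genotypes overlapped with each other. The order of the group means was WT migratory (2533 ± 135), slbo migratory (1875 ± 82.1), slbo nonmigratory (996 ± 107) and WT nonmigratory (959.7 ± 56.9; SD, n = 3 each). Inx3 rose 1.88-fold in slbo migratory cells relative to slbo nonmigratory cells (log2 change 0.91, SE 0.108, limma adjusted p = 0.000214). In WT migratory cells it rose 2.63-fold over WT nonmigratory cells (log2 change 1.39, SE 0.108, limma adjusted p = 4.16e-06). That WT change ranked 4 by p-value among the 9753 probe sets, and it exceeded the change of 98.985% of them.

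Inx2 encodes the innexin that partners Inx3 in epithelia and that is known to act in follicle cells when border cells are specified. Its signal was 1163.7, 1144.4 and 991.4 in slbo migratory cells, against 832.0, 909.1 and 752.7 in slbo nonmigratory cells. In the wild type it was 1583.0, 1631.2 and 1660.4 in migratory cells, against 989.7, 1036.3 and 848.9 in nonmigratory cells. The 3 WT migratory arrays stood above all other arrays, and the slbo migratory arrays overlapped with the WT nonmigratory ones. The order of the group means was WT migratory (1625 ± 39.1), slbo migratory (1099.8 ± 94.4), WT nonmigratory (958 ± 97.6) and slbo nonmigratory (831 ± 78.2; SD, n = 3 each). In that order, slbo migratory and WT nonmigratory cells overlapped, as did the last 2 groups. Inx2 rose 1.32-fold in slbo migratory cells relative to slbo nonmigratory cells (log2 change 0.40, SE 0.118, limma adjusted p = 0.0481). It rose 1.70-fold in WT migratory cells relative to WT nonmigratory cells (log2 change 0.76, SE 0.118, limma adjusted p = 0.000922).

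ogre (optic ganglion reduced) encodes the innexin known for its part in the growth of the optic lobe, where it works in glia with Inx2. Its signal was 4562.3, 4105.1 and 4995.2 in slbo migratory cells, against 3055.8, 3516.0 and 3006.8 in slbo nonmigratory cells. In the wild type it was 5849.2, 7923.8 and 4845.2 in migratory cells, against 3953.0, 3740.7 and 3727.8 in nonmigratory cells. WT migratory replicate 2 was far above the other arrays, and the fractions did not overlap in either genotype. The order of the group means was WT migratory (6206 ± 1570), slbo migratory (4554 ± 445), WT nonmigratory (3807 ± 126) and slbo nonmigratory (3193 ± 281; SD, n = 3 each), and only the first 2 of them overlapped. ogre rose 1.42-fold in slbo migratory cells relative to slbo nonmigratory cells (log2 change 0.51, SE 0.146, limma adjusted p = 0.0432). In WT migratory cells it rose 1.60-fold over WT nonmigratory cells (log2 change 0.67, SE 0.146, limma adjusted p = 0.00940).

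Of the 6 tested innexins, 3 rose in slbo migratory cells, none fell and 3 were not called, where 3.42% of all tested probe sets rose. Ranges without overlap, higher in slbo migratory cells, were found for these 3 innexins and for 14.5% of all probe sets. In WT migratory cells the same 3 rose, none fell and 3 were not called, where 3.95% of all tested probe sets rose and 11.9% had higher ranges without overlap. The median log2 change of the 6 was 0.45 in slbo and 0.72 in WT, against 0.033 and 0.011 over all tested probe sets. In slbo the calls of ogre and of Inx2 were close to the threshold, and each was lost when any of 9 of the 12 arrays was left out, with adjusted p from 0.0537 to 0.146 for ogre and from 0.0521 to 0.160 for Inx2. The call of Inx3 in slbo and all 3 calls in WT held without any single array.

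Averaged over the genotypes (6 migratory against 6 nonmigratory arrays), Inx3 rose 2.22-fold (log2 change 1.15, 95% confidence interval 0.99 to 1.31, limma adjusted p = 2.61e-07). ogre rose 1.51-fold (log2 change 0.59, limma adjusted p = 0.000975) and Inx2 rose 1.497-fold (log2 change 0.58, limma adjusted p = 0.000205). These 3 were again the only innexins called, where 7.39% of all tested probe sets rose. For Inx3 and ogre every migratory array was above every nonmigratory array, as for 2.81% of all probe sets, whereas Inx2 showed overlap.

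**Figure D2:**
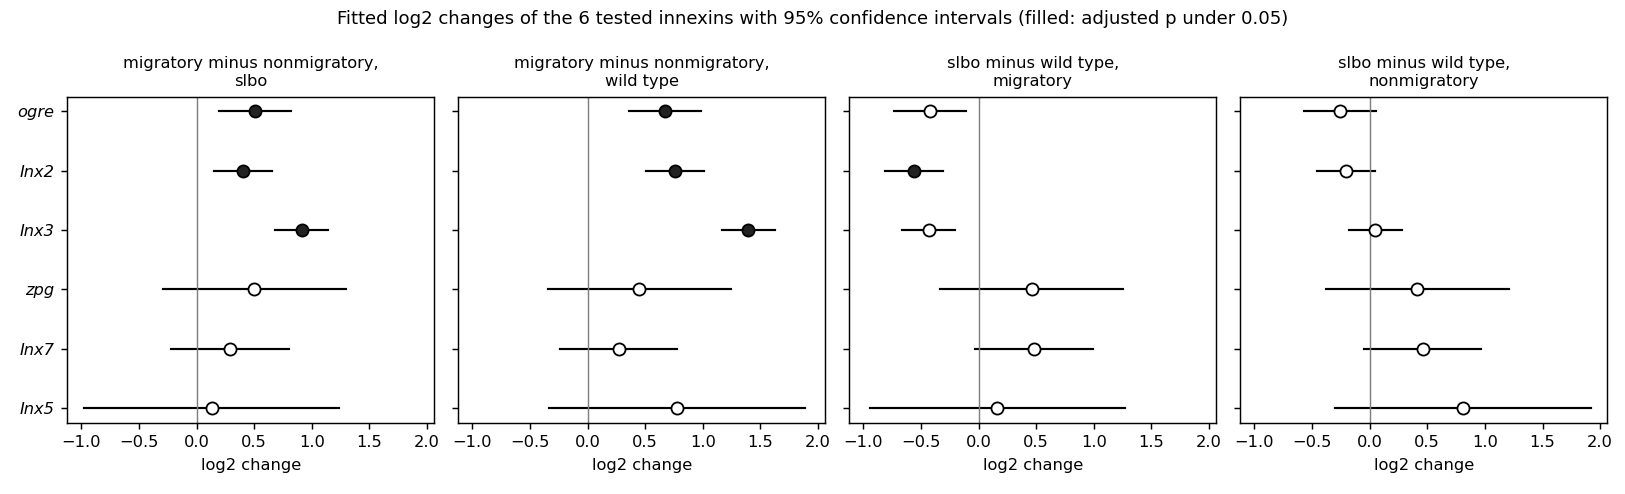
Fitted log2 changes of the 6 tested innexins (rows) in 4 comparisons (panels), with lines for the 95% confidence interval and filled points for an adjusted p under 0.05. ogre, Inx2 and Inx3 are filled in both fraction panels, only Inx2 is filled between genotypes in migratory cells, and none is filled in nonmigratory cells.

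Within each array, the difference between the log2 signals of a pair of probe sets shows whether they changed unequally, free of any scaling of the array. Inx3 minus Inx2 lay between 0.69 and 0.86 in slbo migratory cells, against 0.085 to 0.42 in slbo nonmigratory cells. In the wild type it lay between 0.57 and 0.72 in migratory cells, against -0.12 to 0.095 in nonmigratory cells. The fractions did not overlap in either genotype, and only changes of this difference carry meaning, not its level. Inx3 rose more than Inx2 by 0.57 and more than ogre by 0.56 on the log2 scale, averaged over genotypes (exact permutation test of fraction within genotype, two-sided, p = 0.005 for each, which is the smallest p that 400 arrangements allow, and adjusted p = 0.0075 over the 3 pairs). The change of ogre differed from that of Inx2 by 0.011 (exact permutation p = 0.92). These 3 pairs were chosen after seeing the data.

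zpg encodes the germline innexin. Its signal was 356.0, 191.7 and 256.2 in slbo migratory cells, against 142.1, 271.9 and 154.1 in slbo nonmigratory cells. In the wild type it was 230.8, 104.4 and 266.8 in migratory cells, against 221.7, 96.7 and 112.8 in nonmigratory cells. All 12 arrays were above background, the groups overlapped, and arrays of a group differed widely. The group means were 268 ± 82.8 in slbo migratory, 201 ± 85.3 in WT migratory, 189 ± 71.7 in slbo nonmigratory and 144 ± 68.0 in WT nonmigratory cells (SD, n = 3 each), and no neighbours in that order differed beyond their spread. The log2 change was 0.50 in slbo (95% confidence interval -0.29 to 1.29, limma adjusted p = 0.480) and 0.45 in WT (-0.35 to 1.24, limma adjusted p = 0.573), migratory minus nonmigratory. With single arrays left out, the zpg change ranged from 0.28 (without slbo migratory replicate 1) to 0.78 (without slbo nonmigratory replicate 2) in slbo, and from 0.20 (without WT migratory replicate 3) to 0.85 (without WT migratory replicate 2) in WT. The intervals of zpg include the changes fitted for ogre and Inx2 in both genotypes, so these data do not show that zpg was unchanged.

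Set against ogre, Inx2 and Inx3 within the arrays, zpg changed between fractions by 0.12 less than ogre (log2 change of the difference -0.12, exact permutation p = 0.75). It changed by 0.11 less than Inx2 (-0.11, exact permutation p = 0.73). Against Inx3 the difference was -0.68, with an exact permutation p of 0.045 and an adjusted p of 0.135 over the 3 pairs, which misses the threshold. In both genotypes the zpg minus Inx3 difference had a lower mean in migratory than in nonmigratory cells, by -0.41 in slbo and by -0.94 in WT, and the arrays of the fractions overlapped. No unequal change of germline zpg and any of these 3 innexins between fractions was therefore detected after adjustment.

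**Figure D3:**
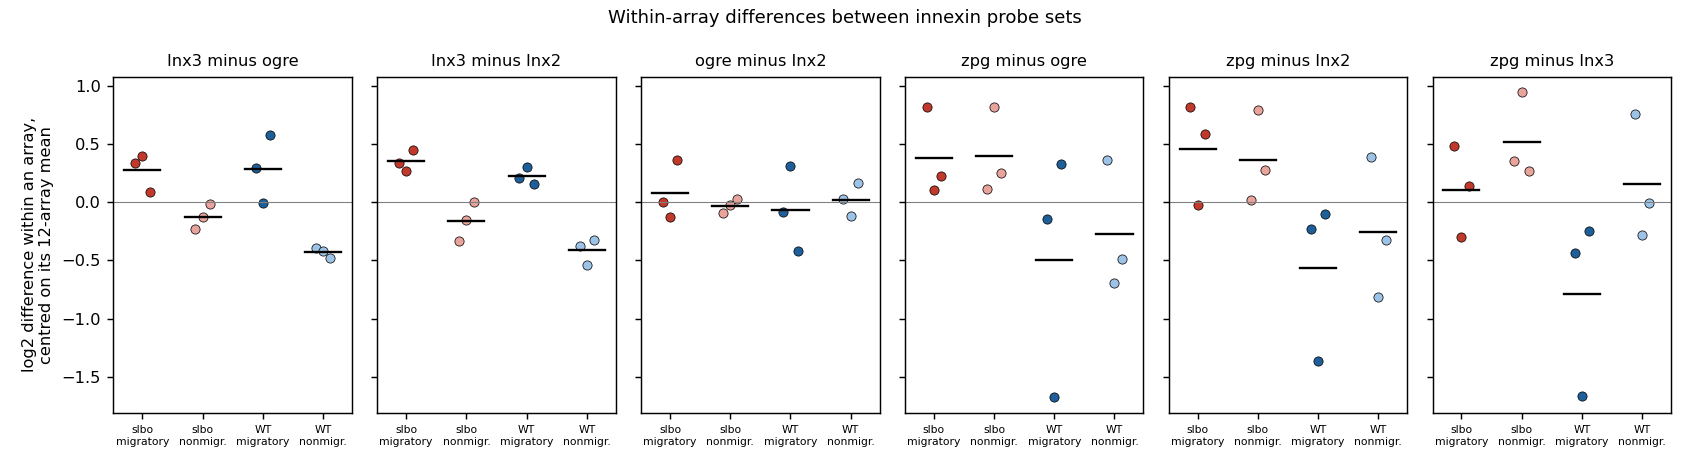
Difference of the log2 signals of 2 innexin probe sets within an array, centred on its mean over the 12 arrays (y axis, log2 units), for 6 pairs (panels) by group; points are arrays and bars group means. The Inx3 minus ogre and Inx3 minus Inx2 points of migratory arrays lie above those of nonmigratory arrays of the same genotype, and the 3 panels with zpg show wider scatter.

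Between genotypes in migratory cells, Inx2 was lower in slbo. The signals of 1163.7, 1144.4 and 991.4 in slbo migratory cells did not overlap with 1583.0, 1631.2 and 1660.4 in WT migratory cells (log2 change -0.56, SE 0.118, limma adjusted p = 0.0218). It was the 1 innexin of 6 called, where 0.769% of all tested probe sets fell and 1.81% were called in either direction. Inx3 had lower signals in all 3 slbo migratory arrays than in any WT migratory array, with a log2 change of -0.43 that missed the threshold (limma adjusted p = 0.0579). ogre had overlapping ranges and a log2 change of -0.42 (limma adjusted p = 0.201). Over all probe sets 8.56% had lower ranges without overlap, and Inx2 and Inx3 were the innexins among them.

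zpg and Inx7 had positive log2 changes between slbo migratory and WT migratory cells, 0.46 for zpg (limma adjusted p = 0.693) and 0.48 for Inx7 (limma adjusted p = 0.440), and neither was called. With single arrays left out, the zpg change ranged from 0.064 (without WT migratory replicate 2) to 0.71 (without WT migratory replicate 3). The Inx7 ranges did not overlap, which held with higher slbo signals for 9.2% of all probe sets. The Inx2 call was lost without any one of the 3 WT migratory arrays or without slbo migratory replicate 1 or 3 (log2 change -0.61 to -0.49, adjusted p 0.0523 to 0.106). When arrays were centred on their medians, which shifted the median of all probe sets by -0.12 in this comparison, Inx3 was called as well (log2 change -0.56, limma adjusted p = 0.0438).

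Between slbo nonmigratory and WT nonmigratory cells none of the 6 innexins was called by limma, where 0.656% of all tested probe sets were called. The log2 changes were -0.26 for ogre, -0.20 for Inx2, 0.049 for Inx3, 0.41 for zpg, 0.46 for Inx7 and 0.81 for Inx5, with limma adjusted p from 0.613 to 0.939. The zpg value ranged from 0.13 (without slbo nonmigratory replicate 2) to 0.76 (without WT nonmigratory replicate 1). Lower slbo ranges without overlap were found for ogre, as for 7.73% of all probe sets. Whether the fraction changes differed between genotypes was tested by the interaction. limma called 0 of the 9753 probe sets (6.77% had an unadjusted p under 0.05), so none of the innexins was called. The interaction was -0.48 for Inx3 (unadjusted p = 0.00648, adjusted p = 0.659 by limma) and -0.36 for Inx2 (unadjusted p = 0.0469, adjusted p = 0.733), meaning smaller fraction changes in slbo, and -0.16 for ogre (adjusted p = 0.920).

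The difference between zpg and a somatic innexin within an array was also compared between genotypes, a choice made after seeing the data. zpg minus Inx2 was 0.82 higher in slbo than in WT on the log2 scale, averaged over fractions (exact permutation of genotype within fraction, two-sided, p = 0.03). zpg minus ogre was 0.77 higher (exact permutation p = 0.05) and zpg minus Inx3 was 0.63 higher (exact permutation p = 0.06). The adjusted p was 0.06 for all 3 pairs, so none passed. Over all settings and single arrays left out, the highest adjusted p was 0.145 for each pair (exact permutation). All 3 passed without WT migratory replicate 3 (changes of 0.98 with ogre, 0.94 with Inx2 and 0.76 with Inx3, adjusted p = 0.045 each) and without WT nonmigratory replicate 1 (0.93, 0.98 and 0.78 in the same order, adjusted p = 0.02, 0.015 and 0.02, all by exact permutation).

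Inx7 encodes an innexin described in the nervous system and the early embryo. Its signal was 459.6, 422.0 and 394.5 in slbo migratory, 304.1, 330.7 and 411.0 in slbo nonmigratory, 271.8, 288.0 and 352.1 in WT migratory, and 402.8, 177.0 and 216.5 in WT nonmigratory cells. The fractions overlapped in both genotypes, and WT nonmigratory replicate 1 stood above the other WT arrays. Its averaged fraction change of 0.28 was not called (limma adjusted p = 0.306), but without WT nonmigratory replicate 1 it was 0.45 and was called (limma adjusted p = 0.0268).

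Inx5 gave 77.5, 75.0 and 70.7 in slbo migratory, 62.8, 68.4 and 70.9 in slbo nonmigratory, 78.0, 63.9 and 56.6 in WT migratory, and 5.6, 60.3 and 79.9 in WT nonmigratory cells. A single array, WT nonmigratory replicate 1, was below background, and the other arrays lay between 56.6 and 79.9. The WT fraction change of 0.78 (limma adjusted p = 0.456) became -0.074 without that array. Inx6, an innexin with a known role in memory neurons of the adult brain, gave 25.8, 9.8 and 15.0 in slbo migratory, 10.5, 22.5 and 29.6 in slbo nonmigratory, 15.5, 11.4 and 13.2 in WT migratory, and 19.6, 22.6 and 12.8 in WT nonmigratory cells. It was above background on 0 of the 12 arrays and has only an upper bound there.

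In the RefSeq gene table of the Drosophila melanogaster assembly Release 6 plus ISO1 MT, used here only for the order of genes, ogre, Inx7 and Inx2 lie close together on the X chromosome. Inx7 is the next protein-coding gene to Inx2 in that order, and ogre lies 3 protein-coding genes from Inx2. Within this cluster ogre and Inx2 rose in migratory cells, and Inx7 was not called. Inx3, with the largest fraction change of the family averaged over genotypes, lies on 3R, and zpg lies on 3L.

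The gap junction genes were set beside other junction and signalling lists, by counts and medians of the averaged fraction change. Septate junctions are the seals of epithelia, whose genes include claudins and the neurexin Nrx-IV. Of all tested probe sets, 7.39% rose in this comparison. Of the 19 septate junction genes tested, 15 rose, none fell and 4 were not called. Their median log2 change was 1.001, against 0.53 for the 6 innexins and 0.030 for all probe sets. Tsf2, a transferrin needed to assemble these junctions, rose by 1.83 (SE 0.127, limma adjusted p = 3.24e-07), the immunoglobulin protein Lac by 1.198 (limma adjusted p = 2.40e-06) and the Ly6 protein crim by 1.21 (limma adjusted p = 4.94e-06). Of 10 adherens junction and E-cadherin partner genes, 2 rose and none fell (median 0.19), with Nrg at 0.55 (limma adjusted p = 0.00443) and alpha-Cat at 0.43 (limma adjusted p = 0.0150). Of 12 genes of calcium release and calcium signalling, none was called (median 0.18), and the lowest p-values belonged to the calcium pump SERCA at -0.30 (limma adjusted p = 0.0741) and the channel Trpm at -0.93 (limma adjusted p = 0.0777).

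Within genotypes, 3.42% of all tested probe sets rose in slbo migratory cells and 3.95% in WT migratory cells. The septate junction list rose for 10 of 19 genes in slbo (median 0.88) and 12 of 19 in WT (median 1.12). In slbo these were led by Tsf2 at 1.68, Lac at 1.17 and crim at 1.12 (limma adjusted p = 9.29e-05, 0.000257 and 0.000778). In WT they were led by Tsf2 at 1.98, Lac at 1.22 and crim at 1.296 (limma adjusted p = 1.70e-05, 0.000134 and 0.000151). Between slbo migratory and WT migratory cells, where 0.769% of all tested probe sets fell, 1 of 19 was called. This was Tsf2 at -0.88 (limma adjusted p = 0.0191), and the list's median was -0.39. The count was 0 without WT migratory replicate 1, slbo migratory replicate 1 or slbo migratory replicate 2. For the adherens list 0 of 10 were called in slbo (Nrg at 0.44 and CadN at -0.43, limma adjusted p = 0.126 and 0.395) and 3 of 10 in WT, namely alpha-Cat at 0.66, p120ctn at 0.66 and Nrg at 0.66 (limma adjusted p 0.0174, 0.0233 and 0.0234). Those 3 calls were all lost without WT migratory replicate 3 or without WT nonmigratory replicate 1, and 1 was left without WT nonmigratory replicate 2. The difference between genotypes was not called for any gene of these lists in the interaction.

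**Figure D4:**
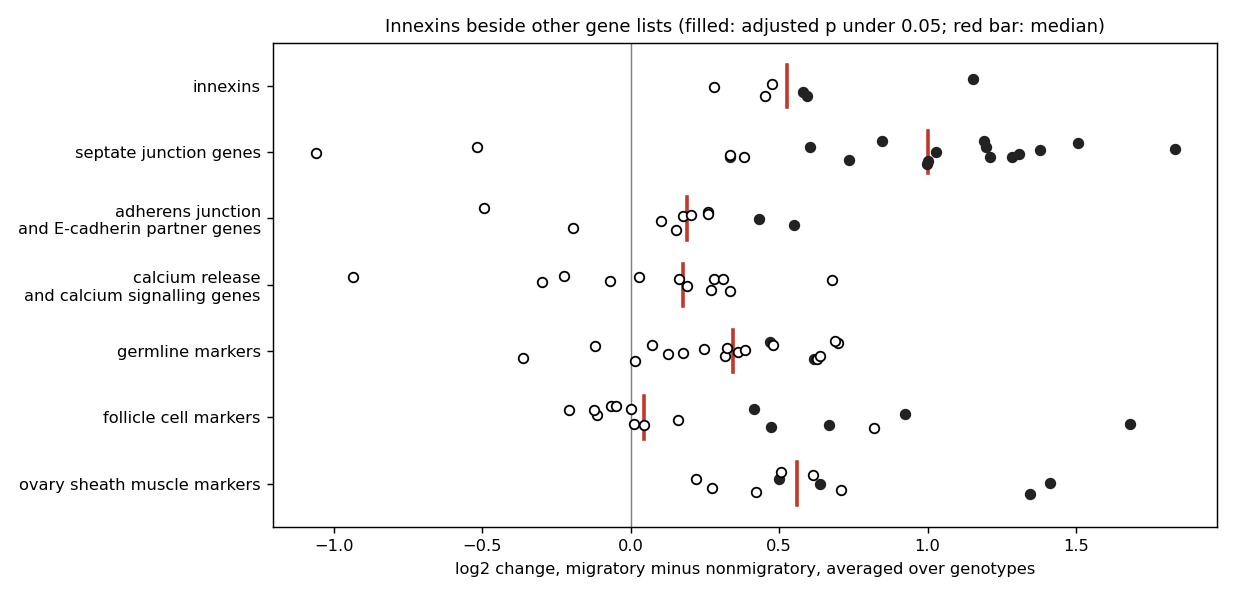
Log2 change, migratory minus nonmigratory and averaged over genotypes (x axis), of each tested gene of 7 lists (rows); filled points have an adjusted p under 0.05 and red bars are medians. The 6 innexins lie between 0.28 and 1.15, and the septate junction genes have the median furthest to the right, at 1.001.

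Markers of other cells the fractions could hold were read on the same arrays. For germline markers, of which zpg is not one, the summed signal of 19 genes was 4193 to 5187 in slbo migratory, 3307 to 3741 in slbo nonmigratory, 2501 to 3966 in WT migratory and 1868 to 2934 in WT nonmigratory cells. The slbo migratory range stood above the others, and the part of germline RNA in the zpg signal of the fractions was not tested. Of 18 germline markers tested, 2 rose in migratory cells averaged over genotypes (BicD by 0.47 and the thioredoxin dhd by 0.62, limma adjusted p = 0.00351 and 0.0422), where 7.39% of all tested probe sets rose. None fell and 16 were not called, and the list's median was 0.34, beside the zpg change of 0.47. The number called lay between 1 and 5 with single arrays left out, and it was 2 without WT nonmigratory replicate 1 only. Between slbo migratory and WT migratory cells 1 of the 18 was called, swa, higher by 1.296 (limma adjusted p = 0.0368), where 1.81% of all tested probe sets were called. The list's median was 0.58, beside the zpg change of 0.46, which was 0.064 without WT migratory replicate 2. The swa call was lost without any 1 of the 6 migratory arrays and without slbo nonmigratory replicate 1 or 2.

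Of 15 follicle cell markers, 5 rose in migratory cells and none fell (median 0.046), led by Fcp3C at 1.68 (limma adjusted p = 2.10e-07), Vm26Ac at 0.92 (limma adjusted p = 4.76e-05) and psd at 0.67 (limma adjusted p = 0.000374). All 15 had a mean over the 12 arrays above background. Of all tested probe sets, 7.39% rose averaged over genotypes. Between slbo migratory and WT migratory cells 3 of the 15 were called lower and none higher (median -0.18). Of all tested probe sets, 0.769% fell in that comparison. The 3 were ndl at -0.71, tj at -1.31 and Fcp3C at -0.72 (limma adjusted p = 0.00252, 0.0201 and 0.0244). Their number lay between 1 and 3 with single arrays left out. The part of the follicle cells in the innexin changes was not tested. Of 10 muscle markers, 4 rose in migratory cells averaged over genotypes, and the median was 0.56. Among the 4 were Zasp66 at 1.35, Prm at 1.41 and Mlc2 at 0.64 (limma adjusted p = 0.00232, 0.0208 and 0.0423). The count was 1 or 2 without any 1 of 9 arrays, all but WT migratory replicate 3, WT nonmigratory replicate 2 and slbo nonmigratory replicate 2. Their summed signal was 5454 to 6820.1 in slbo migratory, 2883 to 4975 in slbo nonmigratory, 3761 to 7010 in WT migratory and 2451 to 4971 in WT nonmigratory cells. The part of the muscle cells in the innexin changes was not tested. Of 8 neuron and glia markers, 7 had a mean over the 12 arrays that was not above background. Among them was the neuronal protein elav, at group means of 30.03 to 37.03.

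Gut markers moved with genotype. Of 20 tested, 10 were higher in slbo migratory than in WT migratory cells, where 1.81% of all tested probe sets were called in either direction. The lowest p-values belonged to the lysozyme genes LysC, LysE and LysB (limma adjusted p = 5.95e-11, 7.18e-05 and 7.18e-05). LysC gave 2195.9 ± 545 in slbo migratory cells, against 24.8 ± 1.42 in WT migratory cells (SD, n = 3 each), where it was not above background. LysE was higher by 2.46 and LysB by 2.77 on the log2 scale, and lysozyme probe sets can read related genes. The summed signal of 22 gut markers was 27782 to 40004 in slbo migratory, 15538 to 20905 in slbo nonmigratory, 4038 to 10840 in WT migratory and 4044 to 8691 in WT nonmigratory cells. Averaged over genotypes, 5 of 20 rose in migratory cells and none fell (10 rose without WT migratory replicate 2), where 7.39% of all tested probe sets rose. The 5 were led by the Jonah proteases Jon99Fii at 1.67, Jon99Fi at 1.99 and Jon65Ai at 1.36 (limma adjusted p = 4.68e-05, 7.68e-05 and 0.000656). With the mean log2 signal of the gut markers as a covariate, Inx2 was no longer called between genotypes in migratory cells (log2 change -0.40, limma adjusted p = 0.739). The same covariate ended the Inx2 call between the slbo fractions (log2 change 0.48, limma adjusted p = 0.193). This mean was 8.15 to 9.49 on slbo arrays and 6.54 to 7.84 on WT arrays, and it did not overlap between the slbo fractions either. Because it moves with genotype and with the slbo fraction, its part in the Inx2 changes and theirs cannot be told apart.

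RNA integrity, read as the 5' to 3' signal ratio of the GAPDH control probe sets, differed between fractions. It was 0.0932 to 0.150 in slbo migratory, 0.134 to 0.184 in slbo nonmigratory, 0.0783 to 0.0947 in WT migratory and 0.158 to 0.200 in WT nonmigratory cells, with no overlap in the wild type. With this ratio as a covariate limma called 5 of the 9753 probe sets between the WT fractions, against 821 without it, and none of the 3 innexins was among them (log2 changes of 1.37 for Inx3, 1.15 for Inx2 and 0.39 for ogre, limma adjusted p = 0.0629, 0.179 and 0.736). In slbo it left Inx3 called, while Inx2 (0.59, limma adjusted p = 0.0621) and ogre (0.38, limma adjusted p = 0.376) were not. Because the ratio moves with the fraction, its part in the innexin changes and that of the fraction cannot be told apart.

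Among 5502 named probe sets, those whose log2 signal followed a member most closely over the 12 arrays are given by Pearson's r, as a description of arrays that share their groups. Inx3 was followed by the glutathione transferase GstO3 (r = 0.981), the cathepsin CtsF (0.972) and the glutathione transferase GstD4 (0.970). Inx2 was followed by the prolyl hydroxylase PH4alphaEFB (0.954), the adhesion protein Nrt (0.944) and the sodium pump subunit nrv1 (0.942). ogre was followed by the cathepsin CtsB (0.950), the clathrin light chain Clc (0.926) and the translocon subunit Sec61beta (0.924). zpg had weaker partners, with cyst at 0.811, AANATL6 at 0.801 and Mob2 at 0.797. Inx7 was followed by the tetraspanin lbm (0.915), the germ plasm gene pgc (0.908) and Tet (0.875). The Inx5 partners Nepl10 (0.938), sob (0.912) and Fhos (0.902) were found on arrays where WT nonmigratory replicate 1 alone was very low for Inx5. In WT migratory and WT nonmigratory cells, group means of cyst (37.1 and 28.5) and Tet (37.1 and 16.5) were not above background (39.2). The same held for Fhos in WT nonmigratory cells (22.6).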

How the data were processed

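RNA from ovary cells, stated to be 3 biological repeats in each of 4 groups, was measured on 12 single-channel oligonucleotide arrays. The authors deposited signal intensity values made with MAS5, per the submitters' processing notes. No version is stated, and the genome build is not given in the sources used here. Probe sets were named through the platform's annotation table; 12442 of 14010 had 1 gene, 327 several, 1197 none and 44 were controls.

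Intensities were kept as deposited, and 5% of the trimmed mean (2% cut from each side) was added before log2. The 9753 probe sets above the 40th percentile on at least 3 arrays were tested with limma 3.58.1 in R 4.3.3: 4 group means, an intensity trend in the variance, 8 residual degrees of freedom, and Benjamini-Hochberg adjustment at 0.05 for each comparison. The median SE was 0.315 between 2 groups, 0.223 averaged over genotypes and 0.446 for the interaction. The number of arrays limits precision. Pairs of probe sets were compared by exact permutation of arrays within genotype or fraction. Arrays of a group correlated at 0.912 to 0.948.

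The innexins, the comparisons, 5 gene lists and 6 marker lists came from general knowledge and were chosen with earlier results of these data known. All members are named; from each list, in a comparison described, up to 3 called genes with the lowest p are named, or 2 as values where none was called; and for likeness, the 3 symbols with the highest Pearson correlation. The arrays were not treated as paired by replicate number. Deviations of equally numbered arrays correlated between -0.0761 and 0.0775, which cannot show whether 2 fractions came from 1 preparation. The fit was tested on simulated data. Alternatives were median centring, quantile normalization, other filters, 1% or 20% in place of 5%, array weights, a variance without trend, a replicate block, covariates for GAPDH and gut signal, only the groups compared, and leaving out each array. Tables and figures were made in Python 3.11.15 (pandas 2.3.3, numpy 2.4.6, matplotlib 3.10.9, scipy 1.17.1).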

Additional observations from a re-analysis of the deposited data

How the results depend on the processing

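With single arrays left out, the number of innexins called stayed at 3 in WT and at 0 between genotypes in nonmigratory cells and for the interaction. Averaged over genotypes it was 3, or 4 without WT nonmigratory replicate 1, where Inx7 was called. It ranged from 1 to 3 between the slbo fractions and from 0 to 1 between genotypes in migratory cells. Between the slbo fractions the count was 1, Inx3 alone, after median centring, without the filter, without the variance trend and with the GAPDH ratio as a covariate (ogre adjusted p = 0.110, 0.0635, 0.161 and 0.376 by limma). The Inx2 call alone was lost there with only the groups compared (adjusted p = 0.0535) and with the gut covariate (adjusted p = 0.193). Between genotypes in migratory cells it was 2 after median centring and with a filter at the 60th percentile, where Inx3 was called. It was 0 without the trend, with the gut covariate and with only the groups compared (Inx2 adjusted p = 0.146, 0.739 and 0.0610 by limma). In WT it was 0 with the GAPDH ratio, and without the trend ogre was not called (adjusted p = 0.0730 by limma). Averaged over genotypes, the GAPDH ratio left Inx3 and Inx2 called and ogre not (adjusted p = 0.515 by limma). The calls without centring, 102 higher and 75 lower between genotypes in migratory cells and 385 higher and 436 lower between WT fractions, became 85 and 125 and 370 and 268 after centring. Over all probe sets, the 821 calls between WT fractions became 473 without the trend, 5 with the GAPDH ratio and 491 with only the groups compared. The 809 between slbo fractions became 391 without the trend, 161 with the GAPDH ratio and 90 with the gut covariate, and the 177 between genotypes in migratory cells became 91, 42 and 5 under the same 3 settings. The 64 between genotypes in nonmigratory cells became 14 without the trend and 19 with the gut covariate, and the 1624 averaged over genotypes became 37 with the GAPDH ratio and 683 with the gut covariate. Leaving out 1 array moved these counts, and with them the shares of all probe sets printed beside the innexins. Between WT fractions it was 512, 536 and 455 without WT migratory replicate 1, WT migratory replicate 3 and WT nonmigratory replicate 2. Between slbo fractions it was 454 and 530 without slbo migratory replicates 2 and 3, and 370 and 437 without slbo nonmigratory replicates 1 and 2. Between genotypes in migratory cells it was 80 and 96 without slbo migratory replicates 1 and 3. In nonmigratory cells it was 27 and 30 without WT nonmigratory replicates 1 and 2, and 26, 18 and 25 without slbo nonmigratory replicates 1, 2 and 3. The interaction had 2 calls, none an innexin, without WT migratory replicate 3. With the replicate block the counts of innexins were the same, 3, 3, 1, 0, 0 and 3, and no innexin call changed.

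Directions turned only for values that were not called, some of them as large as called ones (Inx5, 0.78 and 0.81). With the gut covariate, slbo against WT in migratory cells was -0.65 for zpg, -0.35 for Inx5 and 0.20 for ogre, and in nonmigratory cells -0.34 for zpg and 0.16 for ogre. Between slbo fractions it gave -0.043 for zpg and -0.12 for Inx5, and interactions of -0.086 for Inx7, -0.31 for zpg and 0.038 for ogre. Median centring gave interactions of -0.069 for Inx7 and -0.040 for zpg, array weights -0.11 for zpg, and the GAPDH ratio a WT fraction change of -0.023 for Inx7. With single arrays left out, the interaction ranged from -0.32 to 0.26 for Inx7, from -0.35 to 0.33 for zpg, from -0.33 to 0.027 for ogre and from -1.17 to 0.20 for Inx5. Inx5 ranged from -0.074 to 1.295 between WT fractions and from -0.042 to 1.33 between genotypes in nonmigratory cells, where Inx3 ranged from -0.022 to 0.13. Within arrays and between fractions, zpg minus ogre ranged from -0.32 to 0.18, zpg minus Inx2 from -0.25 to 0.093 and ogre minus Inx2 from -0.083 to 0.10, and the last was -0.053 after quantile normalization. Between genotypes, zpg minus ogre ranged from 0.48 to 0.98, zpg minus Inx2 from 0.62 to 0.98 and zpg minus Inx3 from 0.41 to 0.78. The cause of these shifts was not tested.

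3 arrays a group, 1 probe set a gene and deposited MAS5 signals limit every comparison. Between fractions, changes of zpg, Inx7 and Inx5 as large as those of ogre and Inx2 lie within their intervals. Inx6 is below background.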

Other observations

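Border cell fate and soma to germline signalling genes were read beside the innexins. Of 14 tested, 2 rose in migratory cells averaged over genotypes, the transcription factor apt by 0.53 (SE 0.127, limma adjusted p = 0.00871) and the BMP ligand dpp by 0.78 (SE 0.256, limma adjusted p = 0.0497), where 7.39% of all tested probe sets rose. Within genotypes, dpp changed by 1.52 in WT (limma adjusted p = 0.0161) and by 0.037 in slbo (limma adjusted p = 0.971). apt changed by 0.39 in WT (limma adjusted p = 0.228) and by 0.68 in slbo (limma adjusted p = 0.0305). Neither was called in the interaction. The count averaged over genotypes lay between 1 and 3 with single arrays left out, and it was 1 without WT migratory replicate 1 or 3, WT nonmigratory replicate 2 or 3, slbo migratory replicate 3, or slbo nonmigratory replicate 1 or 3. Between slbo migratory and WT migratory cells none of the 14 was called, and dpp had the lowest p-value, with a log2 change of -1.34 (limma adjusted p = 0.0794), followed by apt at 0.38 (limma adjusted p = 0.413).

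Of 8 tested genes of germline stem cells and cyst differentiation, the stage in which zpg is needed, none was called between the fractions. The lowest p-values averaged over genotypes belonged to piwi at -0.36 (limma adjusted p = 0.137) and otu at 0.69 (limma adjusted p = 0.175). Averaged over genotypes, 903 of the 9753 tested probe sets fell in migratory cells. Of 5 tested blood cell and fat body markers 1 fell there, the antimicrobial peptide gene Drs by 1.82 (SE 0.340, limma adjusted p = 0.00167), and none rose. The count was 2 without WT nonmigratory replicate 3. The summed signal of 8 such markers was 264 to 369.8 in slbo migratory, 414 to 515 in slbo nonmigratory, 248 to 309.5 in WT migratory and 290.4 to 591 in WT nonmigratory cells. Of 3 tested neuron and glia markers none was called between the fractions, and elav had a log2 change of 0.35 (limma adjusted p = 0.645) and nrv3 of 0.30 (limma adjusted p = 0.650).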
